A study of Mus musculus with 8 samples.

Results

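Imprinted genes, which are transcribed mainly from the copy of a single parent, and the regions that control them were followed in mammary tumors treated with 2 drugs that bear on DNA methylation. The genes were a list of 44 imprinted genes, and a cytosine counted toward a gene when it lay in the gene body (GENCODE M21) or in the 5000 bp upstream and had 10 or more reads in each of the 8 libraries. Such cytosines were found in 43 of the 44 genes, the exception being Ndn. They numbered 1302 of 567750 in the genome and fell into 217 of 113626 tiles, a tile being a window of 1000 bp that does not overlap its neighbours. In all, 28600 of the 53843 annotated genes had such a cytosine. Control regions were taken as the tiles within 2000 bp of an annotated start of 24 of the genes, and the tiles in the 5000 bp upstream of H19, and 23 of these 25 regions had at least 1 covered tile, for 68 tiles in all. The other 2 were those of Ndn and Cdh15. The term stands for these windows, which take in promoters and exons and are not all germ line control regions.

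NIC-5231 cells, a mouse line from an ErbB2-driven mammary tumor, were grafted into a mammary fat pad of 5 to 7 week old NSG mice. Mice received intraperitoneal injections every 2 days of C29 at 10 mg/kg, an inhibitor of the nuclear receptor ERRα, of 5-azadC (decitabine) at 1 mg/kg, an inhibitor of DNA methyltransferases, of both drugs (the combination), or of the vehicle of saline, PEG and DMSO alone. Each of the 4 groups had 5 mice and gave 2 libraries of reduced representation bisulfite sequencing (RRBS), each from tumor DNA pooled over 2 mice. All groups carried the same graft and shared the route and schedule of injection, and host cells in a tumor are also of mouse origin, so their DNA is counted with that of the graft.

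Reads over cytosines summed to 70254846 and 70790628 with vehicle, 69842185 and 73325247 with C29, 63888872 and 81299065 with 5-azadC, and 57947338 and 51359825 with the combination. The median cytosine listed had 21 to 30 reads. A covered imprinted gene held from 4 to 212 cytosines, with a median of 19, and a tile of these genes held from 10 to 5613 reads in a library, with a median of 143.5. Of the 217 tiles, 54 rested on 1 cytosine and 125 on 3 or more. Several genes of the list overlap each other and share cytosines, among them Igf2r with Airn (38 cytosines), Zrsr1 with Commd1 (33), Nnat with Blcap (25), Mcts2 with H13 (18) and Peg13 with Trappc9 (14), so their values are not independent.

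Imprints are laid down in the germ line as methylation of a control region in egg or sperm, and the copy inherited from that parent keeps the methyl groups through cell division while the other copy stays free of them. A germ line control region that holds its imprint is therefore methylated on 1 of 2 copies, and reads from both copies together lie near the middle of the scale. Maintenance needs DNMT1 with its partner UHRF1, and at imprints also the zinc finger proteins Zfp57 and Zfp445 with Trim28. The files hold no information on parental copies, so a value near 50% from copies that differ, from cells that differ, or from host and graft cells cannot be told apart here.

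The stretches below are those of the control regions whose values carry most of what follows, chosen after their values were seen. Each was read from GRCm38.p6 on the plus strand, and the CpGs with a measured cytosine are in capitals. They span the H19 upstream region, the exon of the Kcnq1ot1 RNA, a coding exon of Cdkn1c and the sequence upstream of it, an intron of Snrpn, the coding exon of Magel2, the exon of Gnas that encodes Nesp, the sequence upstream of Mcts2 within H13, introns of Plagl1 and Grb10, the sequence upstream of Zrsr1 within Commd1, the exon of the Peg13 RNA within Trappc9, an intron of Igf2r that also lies within Airn (2 stretches), and the promoter of Igf2r.
H19 upstream, chr7:142581130-142581243: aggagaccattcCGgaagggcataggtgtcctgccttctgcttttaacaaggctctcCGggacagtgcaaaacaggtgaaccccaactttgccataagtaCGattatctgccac
Kcnq1ot1, chr7:143295363-143295455: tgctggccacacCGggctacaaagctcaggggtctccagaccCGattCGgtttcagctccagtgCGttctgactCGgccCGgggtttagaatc
Cdkn1c coding exon, chr7:143459747-143459920: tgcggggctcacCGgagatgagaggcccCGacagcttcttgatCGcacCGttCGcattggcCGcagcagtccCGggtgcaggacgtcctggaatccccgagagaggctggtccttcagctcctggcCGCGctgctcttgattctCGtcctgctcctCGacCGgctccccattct
Cdkn1c upstream, chr7:143463927-143463991: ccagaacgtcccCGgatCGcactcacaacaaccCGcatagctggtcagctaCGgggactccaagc
Snrpn, chr7:60004568-60004663: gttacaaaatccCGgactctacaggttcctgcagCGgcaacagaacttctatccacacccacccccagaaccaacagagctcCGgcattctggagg
Magel2, chr7:62377342-62377562: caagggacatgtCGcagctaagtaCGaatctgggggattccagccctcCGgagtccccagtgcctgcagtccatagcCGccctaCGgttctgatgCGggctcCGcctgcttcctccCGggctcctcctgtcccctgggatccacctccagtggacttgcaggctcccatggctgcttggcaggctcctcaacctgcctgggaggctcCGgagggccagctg
Gnas Nesp exon, chr2:174284692-174284864: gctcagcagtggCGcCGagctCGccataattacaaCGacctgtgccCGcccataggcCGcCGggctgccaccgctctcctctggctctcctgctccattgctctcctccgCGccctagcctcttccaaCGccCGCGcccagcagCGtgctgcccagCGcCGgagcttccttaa
Mcts2, chr2:152686842-152686992: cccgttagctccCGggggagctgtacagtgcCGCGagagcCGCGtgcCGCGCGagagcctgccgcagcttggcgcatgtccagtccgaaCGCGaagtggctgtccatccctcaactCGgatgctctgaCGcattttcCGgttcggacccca
Plagl1, chr10:13091028-13091201: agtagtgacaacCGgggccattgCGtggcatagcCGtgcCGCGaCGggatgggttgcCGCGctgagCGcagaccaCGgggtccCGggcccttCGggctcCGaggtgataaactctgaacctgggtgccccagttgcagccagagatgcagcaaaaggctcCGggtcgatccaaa
Grb10, chr11:12036649-12036740: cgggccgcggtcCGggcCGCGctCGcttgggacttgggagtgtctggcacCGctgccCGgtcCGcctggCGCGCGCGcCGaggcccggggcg
Zrsr1, chr11:22971851-22972012: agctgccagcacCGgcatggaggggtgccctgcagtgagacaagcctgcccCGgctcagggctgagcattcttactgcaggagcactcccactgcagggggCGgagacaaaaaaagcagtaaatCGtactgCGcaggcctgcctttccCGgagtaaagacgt
Peg13, chr15:72809688-72809834: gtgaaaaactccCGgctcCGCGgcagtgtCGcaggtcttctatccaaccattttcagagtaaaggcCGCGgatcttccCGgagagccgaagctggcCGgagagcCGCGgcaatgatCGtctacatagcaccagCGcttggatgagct
Airn, chr17:12742364-12742433: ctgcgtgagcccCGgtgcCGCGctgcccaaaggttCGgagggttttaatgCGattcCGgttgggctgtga
Igf2r intron, chr17:12751271-12751376: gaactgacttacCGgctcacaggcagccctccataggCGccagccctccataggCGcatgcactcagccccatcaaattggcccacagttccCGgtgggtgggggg
Igf2r promoter, chr17:12769726-12769848: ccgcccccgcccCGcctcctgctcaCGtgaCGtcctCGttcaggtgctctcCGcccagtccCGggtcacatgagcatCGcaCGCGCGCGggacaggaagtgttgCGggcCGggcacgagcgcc

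The imprinted genes were more methylated than the genome as a whole in every library. The mean over their 1302 cytosines was 51.5% and 52.2% with vehicle, 50.8% and 50.4% with C29, 47.7% and 47.2% with 5-azadC, and 47.8% and 51.3% with the combination. Both libraries of 5-azadC and combination replicate 1 lay below the 4 libraries without 5-azadC, while combination replicate 2 lay among them. Over all cytosines the mean was 34.9% in each vehicle library, 34.7% and 33.6% with C29, 30.5% and 30.9% with 5-azadC, and 31.6% in each library of the combination, and there the 4 libraries with 5-azadC lay below the 4 without. The difference between libraries with and without 5-azadC was -2.74 percentage points over the imprinted genes, with an SD between replicates of 1.27, and -3.37 points over all cytosines, with an SD of 0.433. Levels between 30% and 70% were held by 23.0% to 29% of the imprinted cytosines in a library, against 11.8% to 15.5% of all cytosines.

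**Figure D1:**
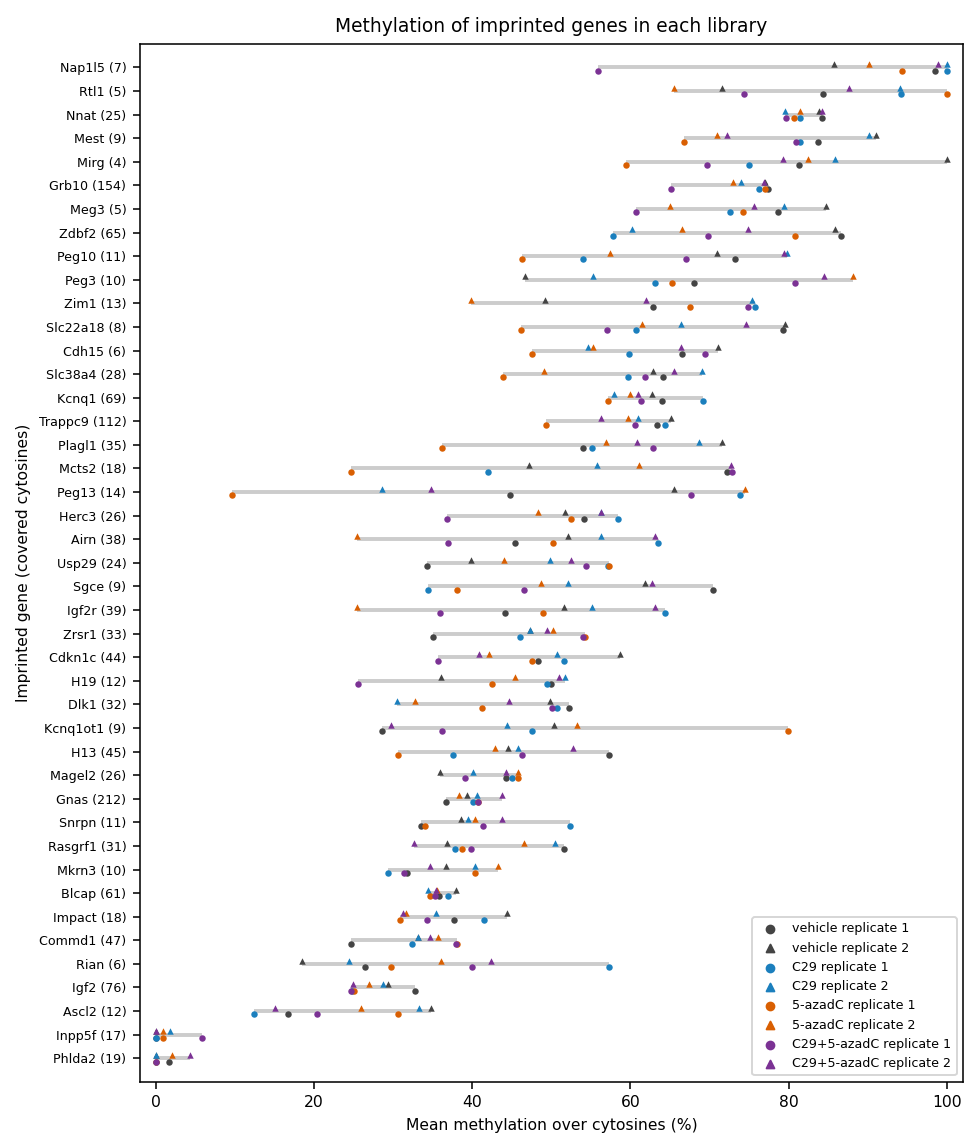
Mean methylation over the covered cytosines of each imprinted gene (percent, horizontal axis) in each of the 8 libraries, with the number of cytosines in brackets and a grey bar from the lowest to the highest library. Blcap and Nnat span 3.53 and 4.66 percentage points over the libraries, and Peg13 spans 64.8.

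The span between libraries differed widely from gene to gene. Blcap, a small membrane protein gene that surrounds Nnat, had a mean over cytosines of 35.8% and 38.0% with vehicle, 36.9% and 34.4% with C29, 34.7% and 35.6% with 5-azadC, and 35.2% and 35.4% with the combination. These 8 means lay within 3.53 percentage points, while the pooled reads of Blcap, which give more weight to deeply read cytosines, spanned 8.94 points and put both 5-azadC libraries above both of vehicle. Nnat, a small membrane protein of the endoplasmic reticulum, had 84.2% and 83.8% with vehicle, 81.4% and 79.6% with C29, 80.7% and 81.5% with 5-azadC, and 79.6% and 84.2% with the combination. The means of Nnat spanned 4.66 points and its pooled reads 13.6, from 70.7% to 84.4%, and with either the level was high in all libraries. Gnas, the α subunit of the stimulatory G protein, held 212 cytosines, and its mean was 38.0% ± 1.89 (SD, n = 2) with vehicle, 40.3% ± 0.414 with C29, 39.5% ± 1.64 with 5-azadC, and for the combination it was 42.3% ± 2.22. At the other end of the scale Phlda2, which restrains placental growth, had a mean of at most 4.39% and Inpp5f, a phosphoinositide phosphatase, of at most 5.88% in every library. Their highest pooled values were 2.96% and 9.58%. Over the 43 genes, Peg13, a noncoding RNA inside Trappc9, had the widest span by means and by pooled reads (64.8 and 57.8 points), with means of 44.8% and 65.6% with vehicle, 73.9% and 28.6% with C29, 9.68% and 74.5% with 5-azadC, and 67.6% and 34.8% with the combination. In each group its replicates lay further apart than any 2 group means.

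On distal chromosome 7, 2 neighbouring imprinted domains were covered. In the first, the H19 upstream tile (chr7:142581001-142582000, 4 cytosines), part of the region whose unmethylated maternal copy binds CTCF and keeps the growth factor gene Igf2 silent, had 69.9% and 77.2% with vehicle, 68.1% and 75.5% with C29, 75.2% and 67.5% with 5-azadC, and 44.3% and 77.5% with the combination. Only combination replicate 1 lay outside a band of 67.5% to 77.5%. Around the start of the H19 RNA, with 4 of the 5 cytosines just upstream of it (chr7:142578001-142579000, 5 cytosines) the values were 39.8% and 13% with vehicle, 43.1% and 29.6% with C29, 15.5% and 20.4% with 5-azadC, and 24.7% and 30.7% with the combination, and every treated group lay at least in part within the vehicle range. Igf2, with 76 cytosines, had a mean of 32.8% and 29.3% with vehicle, 24.8% and 28.7% with C29, 25% and 26.9% with 5-azadC, and 24.7% and 24.9% with the combination. Both vehicle means lay above the 6 treated ones, which did not hold over pooled reads, where C29 replicate 2 at 31.0% lay above vehicle replicate 1 at 30.6%.

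In the second domain, Kcnq1ot1, a paternal noncoding RNA that silences its neighbours and starts inside the potassium channel gene Kcnq1, was covered next to its start by 1 tile of 8 cytosines (chr7:143295001-143296000). It had 12.3% and 39.3% with vehicle, 45.7% and 42.3% with C29, 79.4% and 43.5% with 5-azadC, and 37.2% and 24% with the combination. The 2 vehicle libraries differed by 27.0 points and the 2 5-azadC libraries by 36.0, more than most differences between groups. Of the covered tiles of Cdkn1c, a maternally expressed inhibitor of cyclin-dependent kinases, 3 lay in the window around its annotated starts. In the tile over its coding exon, which lies inside the gene and holds an alternative annotated start (chr7:143459001-143460000, 17 cytosines), 71.3% and 86.5% of reads were methylated with vehicle, 65.3% and 62.1% with C29, 47.9% and 70.3% with 5-azadC, and 47.9% and 40.9% with the combination. Both vehicle libraries were the highest of the 8, and both combination libraries were among the 3 lowest. The adjacent tile (chr7:143460001-143461000, 11 cytosines) ranged from 47.7% to 83.9%, and both 5-azadC libraries were the lowest of the 8. Over 10 of its cytosines this order did not hold, with C29 replicate 1 at 54.9% and 5-azadC replicate 1 at 58.6%. Of the other genes of the domain, Slc22a18, an organic cation transporter, had a mean of 79.3% and 79.5% with vehicle against 46.1% to 74.6% in the 6 treated libraries, and Ascl2, a transcription factor of the trophoblast, ranged from 12.4% to 34.8%.

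In the Prader-Willi domain of chromosome 7, an intron tile of Snrpn, a splicing protein gene, that lies near an annotated start (chr7:60004001-60005000, 4 cytosines) had 15.4% and 35.5% with vehicle, 51.5% and 41.2% with C29, 23.2% and 25% with 5-azadC, and 39.4% and 54.0% with the combination. The 4 libraries with C29 lay above the 4 without it, but on neither strand alone. Plus strand cytosines had 25.3% in C29 replicate 2 and 27.0% in vehicle replicate 1. Minus strand cytosines had 31.5% in combination replicate 2 and 40.1% in vehicle replicate 2, so the order came from the sum of the strands. The adjacent tile (chr7:60005001-60006000, 3 cytosines) did not share this order, with 17.2% and 28.9% with vehicle, 59.4% and 0% with C29, 42.3% and 55.4% with 5-azadC, and 46.3% and 32.8% with the combination. Magel2, a partner of ubiquitin ligases, had the narrowest range of the control region tiles near 50% in vehicle (chr7:62377001-62378000, 24 cytosines), at 47.1% and 36.8% with vehicle, 48.1% and 39.5% with C29, 44.3% and 49.5% with 5-azadC, and 45.5% and 44.3% with the combination. All groups overlapped within 12.7 points, at 815 to 1596 reads per library. This holds for the tile as a whole, since over the 14 cytosines of the stretch printed above the values ran from 21.5% to 43.8%, with both 5-azadC libraries the highest. Mkrn3, a ubiquitin ligase that restrains the onset of puberty, had 7 cytosines in the tile over its start (chr7:62420001-62421000) and ranged from 14.3% to 35.0%.

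On proximal chromosome 7, Peg3, a paternally expressed zinc finger protein that shares its start region with the ubiquitin protease gene Usp29, was covered at its start by 1 tile of 4 cytosines (chr7:6730001-6731000, untranslated exon). The tile had 48.3% and 26.0% with vehicle, 47.8% and 29% with C29, 60.9% and 75.6% with 5-azadC, and 91.1% and 83.4% with the combination. All 4 libraries with 5-azadC lay above all 4 without it, and both libraries of the combination above both of 5-azadC alone. This was the opposite direction to the genome mean. Zim1, a maternally expressed zinc finger gene next to it, had a gene mean of 62.8% and 49.2% with vehicle, 75.8% and 75.3% with C29, 67.6% and 39.8% with 5-azadC, and 74.9% and 61.9% with the combination. Both C29 libraries were the highest of the 8.

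Chromosome 6 carries 3 of the control regions. Mest, a hydrolase of mesoderm, was highly methylated at its covered tile (chr6:30732001-30733000, 3 cytosines), with 100% in both vehicle libraries, 86.8% and 88.6% with C29, 70% and 87.4% with 5-azadC, and 100% and 79.8% with the combination. Peg10, a placental gene derived from a retrotransposon, had 80% and 77.9% with vehicle, 21.1% and 62.7% with C29, 32.4% and 48.3% with 5-azadC, and 59.0% and 84.5% with the combination at the start it shares with Sgce (chr6:4747001-4748000, 5 cytosines). Vehicle lay above C29 and 5-azadC in both libraries, and the combination overlapped vehicle and C29. Nap1l5, a retrogene inside Herc3, stood between 85.7% and 100% in 7 of 8 libraries and at 55.9% in combination replicate 1 (chr6:58906001-58907000, 7 cytosines, 91 to 601 reads).

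The Gnas domain on chromosome 2 had the most covered tiles of any control region. At the Nesp exon (chr2:174284001-174285000, 23 cytosines), which is methylated on the paternal copy, the values were 32.1% and 37.7% with vehicle, 37.1% and 36.5% with C29, 28.7% and 41.1% with 5-azadC, and 44.6% and 54.4% with the combination. Both libraries of the combination were above the other 6. The exon that encodes the large Gnas protein (chr2:174299001-174300000, 28 cytosines) had 69.0% and 67.7% with vehicle, 65.2% and 57.5% with C29, 70.2% and 68.4% with 5-azadC, and 71.6% and 61.2% with the combination. An intron tile 2 kb downstream of the Nesp starts (chr2:174287001-174288000, 9 cytosines, 239 to 682 reads) had 46.4% and 35.5% with vehicle, 21.7% and 20.3% with C29, 28.8% and 16.3% with 5-azadC, and 14.2% and 32.8% with the combination, so all 6 treated libraries lay below both of vehicle. Over 7 of its cytosines this order did not hold, with combination replicate 2 at 38.5% and vehicle replicate 2 at 35.6%. In the tile that follows the large Gnas exon (chr2:174300001-174301000, 18 cytosines) the values were 36.2% and 52.7% with vehicle, 72.4% and 80% with C29, 75.7% and 79.4% with 5-azadC, and 50.8% and 57.9% with the combination. Here C29 and 5-azadC were each above vehicle, while the combination overlapped it. The tiles at the alternative first exon (chr2:174327001-174328000 and chr2:174328001-174329000, 15 and 19 cytosines) ranged from 24.7% to 65.5% and from 24.6% to 64.4%. The promoter of the transcript for the G protein subunit, which is unmethylated on both copies in most tissues, had 0% in all libraries in 1 tile (chr2:174329001-174330000) and at most 0.362% in the next (chr2:174330001-174331000, 48 cytosines, 1526 to 3041 reads). For 5-azadC replicate 1, where that tile had 0 methylated reads of 2625, the 95% Wilson interval reached 0.146%. Intervals of this kind cover counting error only, since PCR reads without molecular identifiers are not independent molecules.

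Also on chromosome 2, Mcts2 is a retrogene with a paternal promoter inside H13, a signal peptide peptidase. Its upstream tile (chr2:152686001-152687000, 13 cytosines) had 78.2% and 68.0% with vehicle, 23.0% and 73.7% with C29, 1.53% and 65.8% with 5-azadC, and 72.7% and 65.5% with the combination. C29 replicate 1 and 5-azadC replicate 1 (95% Wilson interval 0.657% to 3.54%) stood far below the other 6 libraries, which lay between 65.5% and 78.2%. In the tile over the coding exon (chr2:152687001-152688000, 5 cytosines) the low library was instead C29 replicate 2 at 13%, beside 47.7% to 95.1% in the others. At Nnat the tile over the start (chr2:157560001-157561000, 14 cytosines) ranged from 62.3% to 84.1%.

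Grb10 on chromosome 11, an adaptor that dampens insulin and IGF receptor signaling, had 2 tiles of 17 or more cytosines near the middle of the scale close to its annotated starts. In the first (chr11:12036001-12037000, 17 cytosines) the values were 60.1% and 55.9% with vehicle, 67.8% and 56.0% with C29, 69.7% and 62.4% with 5-azadC, and 69.0% and 67.9% with the combination. In the second (chr11:12037001-12038000, 21 cytosines) they were 50.2% and 55.5%, 46.9% and 35.4%, 59.8% and 52.1%, and 49.9% and 29.7% in the same order of groups. In the first tile 5-azadC and the combination lay above vehicle, and in the second C29 and the combination lay below it, in each case with C29 or 5-azadC, respectively, overlapping vehicle. Over a stretch of 8 cytosines in the second tile these groups overlapped. There vehicle had 38.7% and 26.0%, C29 39.6% and 35.2%, and the combination 45.2% and 26.8%. A tile of 3 cytosines (chr11:11948001-11949000) was also near 50% in vehicle, at 50% and 31.0%, and ranged from 17.2% to 50% over the libraries. A further island of 74 cytosines (chr11:12026001-12027000) stood between 69.7% and 93.7%, with vehicle at 88.1% and 89.4%. The tile before this island (chr11:12025001-12026000, 24 cytosines) stood between 63.2% and 87.5%, with vehicle at 75.2% and 81.4%. Both tiles also lay close to annotated starts of Grb10, so the tiles near the middle of the scale do not stand for the whole region. Zrsr1, a splicing factor retrogene inside Commd1, had 37.3% and 54.2% with vehicle, 43.9% and 56.6% with C29, 45.7% and 43.1% with 5-azadC, and 48.1% and 55.5% with the combination at its start (chr11:22972001-22973000, 26 cytosines), and every treated group lay at least in part within the vehicle range. Its upstream tile (chr11:22971001-22972000, 7 cytosines) had 72.4% and 62.5% with 5-azadC and 28.5% to 55.5% in the other 6 libraries. This order held on neither strand alone. Minus strand cytosines had 100% in C29 replicate 2 and 69.8% to 70.9% in 5-azadC replicate 2. On the plus strand, combination replicate 1 (47.5% to 100%) lay above 5-azadC replicate 2 (16.4% to 73.8%) at each cytosine.

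Plagl1 on chromosome 10 encodes a zinc finger protein that restrains growth. The tile at the start of its imprinted transcript (chr10:13091001-13092000, 21 cytosines) had 51.4% and 65.9% with vehicle, 66.1% and 63.0% with C29, 31.4% and 48.8% with 5-azadC, and 67.3% and 66.7% with the combination. Both 5-azadC libraries were the lowest of the 8, and both combination libraries the highest. The tile before it (chr10:13090001-13091000, 5 cytosines, 60 to 374 reads) spanned the whole scale, from 0% in 5-azadC replicate 1 and combination replicate 1 to 100% in C29 replicate 2.

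On chromosome 15, the Peg13 tile (chr15:72809001-72810000, 13 cytosines) had 42.8% and 68.1% with vehicle, 65.9% and 39.4% with C29, 6.07% and 66.4% with 5-azadC, and 71.1% and 47.3% with the combination. The 95% Wilson interval was 39.2% to 46.5% for vehicle replicate 1 and 65.4% to 70.7% for vehicle replicate 2, from intervals that take each call at each cytosine as independent. Slc38a4, an amino acid transporter, had 66.8% and 54.2% with vehicle, 59.6% and 65.0% with C29, 34.9% and 15.2% with 5-azadC, and 58.2% and 33.7% with the combination at an alternative annotated start, about 5 kb inside the gene (chr15:97050001-97051000, 4 cytosines). Both 5-azadC libraries and combination replicate 2 lay below the 5 others, and the next tile (chr15:97051001-97052000, 6 cytosines) stayed between 72.0% and 82.9%.

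On chromosome 17, Airn is a paternal antisense RNA that starts inside Igf2r, the receptor that removes IGF2 from the cell surface, and silences it. The tile next to the Airn start (chr17:12742001-12743000, 10 cytosines) had 74.4% and 28.4% with vehicle, 69.3% and 56.5% with C29, 66.8% and 31.5% with 5-azadC, and 8.96% and 78.0% with the combination. Vehicle, 5-azadC and the combination each held 1 high and 1 low library. The intron tile (chr17:12751001-12752000, 6 cytosines) had 48.7% and 61.5% with vehicle, 58.3% and 66.2% with C29, 39.1% and 32.9% with 5-azadC, and 28.1% and 27.6% with the combination. All 4 libraries with 5-azadC lay below all 4 without it there, an order that rests on 1 cytosine. Over the 5 others, which make up the stretch printed above, the values were 21.5% and 36.2% with vehicle, 29.9% and 70.3% with C29, 37.9% and 37.0% with 5-azadC, and 26.7% and 18.3% with the combination, and the groups overlapped. The Igf2r promoter (chr17:12769001-12770000, 22 cytosines) had 36.8% and 59.9% with vehicle, 58.7% and 59.3% with C29, 40.4% and 21.4% with 5-azadC, and 50% and 63.7% with the combination.

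The remaining control regions were thinly covered or lay at the ends of the scale. Meg3, a maternal noncoding RNA of the Dlk1 domain on chromosome 12, had 4 tiles of 1 or 2 cytosines, and the germ line control region between Dlk1 and Meg3 lies outside the windows used. Dlk1, a ligand of the Notch family, is not among the control regions, and its tile of 27 cytosines near the start (chr12:109453001-109454000), singled out after its values were seen, had 49.3% and 59.5% with vehicle, 52.2% and 39.9% with C29, 38.8% and 40% with 5-azadC, and 48.4% and 49.0% with the combination. Both 5-azadC libraries and C29 replicate 2 lay below the other 5. Impact, a regulator of translation on chromosome 18, had 0% in 5 of 8 libraries at its start (10 cytosines) and 6.5% to 19.1% in C29 replicate 2 and both combination libraries. An intron tile of Impact (chr18:12973001-12974000, 3 cytosines, 30 to 200 reads) was methylated in all libraries. Its values were 59.3% and 100% with vehicle, 100% and 77.8% with C29, 35.7% and 55% with 5-azadC, and 75.8% and 29.9% with the combination. Inpp5f stood at or below 1.55% at its main start (chr7:128611001-128612000, 15 cytosines). The germ line control regions of Rasgrf1, an exchange factor for Ras, and of Zdbf2, a zinc finger gene, also lie outside the windows, and the promoter tile of Zdbf2 (chr1:63273001-63274000, 60 cytosines), singled out after its values were seen, had 84.7% and 87.1% with vehicle, 69.1% and 61.6% with C29, 83.7% and 72.6% with 5-azadC, and 74.3% and 82.4% with the combination. Both C29 libraries were the lowest of the 8.

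**Figure D2:**
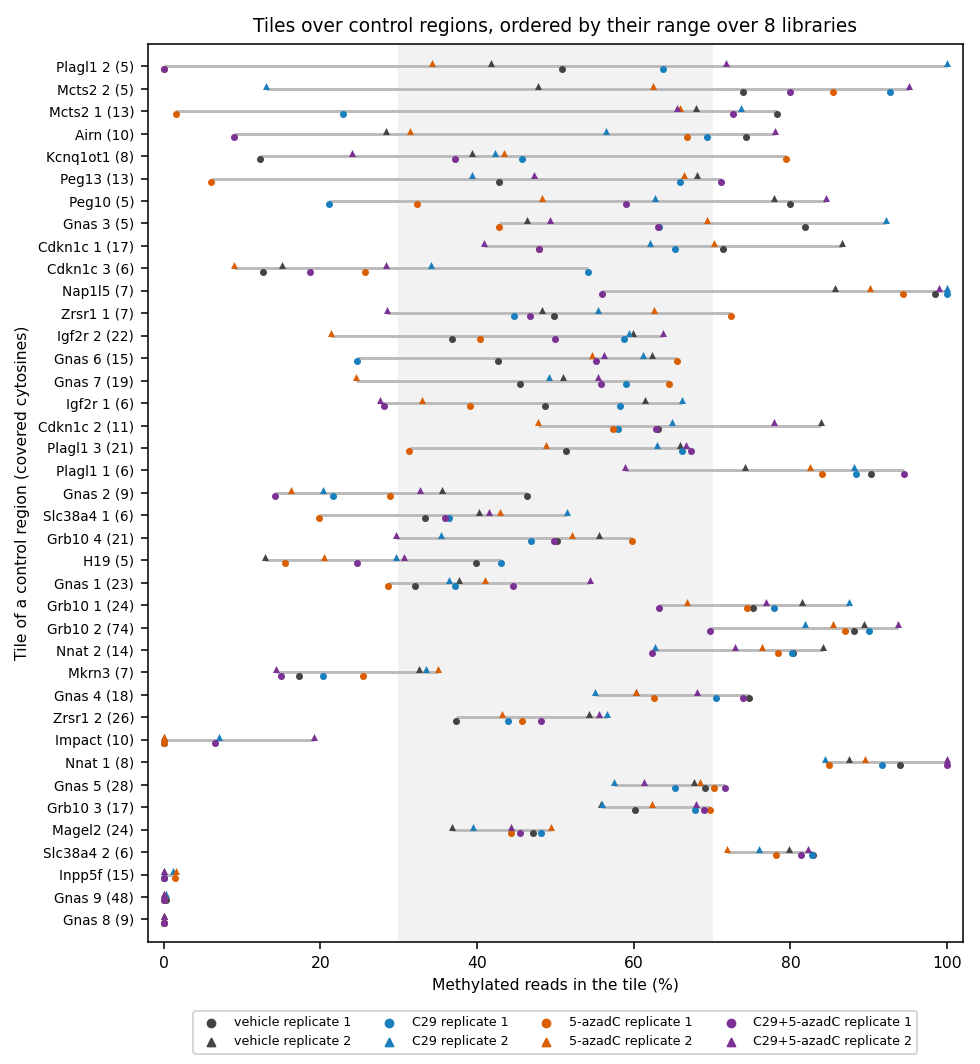
Methylated reads (percent, horizontal axis) in each of the 8 libraries for the control region tiles that hold 5 or more cytosines, ordered by their range, with tiles of a region numbered along the chromosome, the number of cytosines in brackets and 30% to 70% shaded. Plagl1, Mcts2, Airn, Kcnq1ot1 and Peg13 span 65.0 to 100 percentage points, and the Magel2 tile spans 12.7.

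The spread between replicates was described over tiles of 5 or more cytosines. In the 21 imprinted tiles near 50% in vehicle (both vehicle libraries between 30% and 70% and at least 3 cytosines), the median SD between replicates was 10.0 points, and in the 3145 such tiles of the genome it was 9.51. Counting error as binomial would be 1.73 and 2.49 points, which is too small where the same reads cover several cytosines, and the libraries also come from different mice. Single cytosines of a tile also differed, with a median SD among them of 27.4 points in these imprinted tiles and 30.8 in those of the genome. In places, runs of neighbours on a strand shared a level. In the Airn stretch, 5 cytosines of the plus strand each had 57.6% in vehicle replicate 1, and 5 of the minus strand each had 86.7%. In C29 replicate 2 they had 25% on the plus strand and 100% on the minus strand. The Peg13, Mcts2 and Kcnq1ot1 stretches, chosen with Airn after their values were seen, had such runs too, with steps between them, as on the plus strand of Peg13, where vehicle replicate 1 had 60.9% in 1 run and 18% in the next. In the Magel2 stretch the minus strand ran from 0% to 68.1% in the same library.

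**Figure D3:**
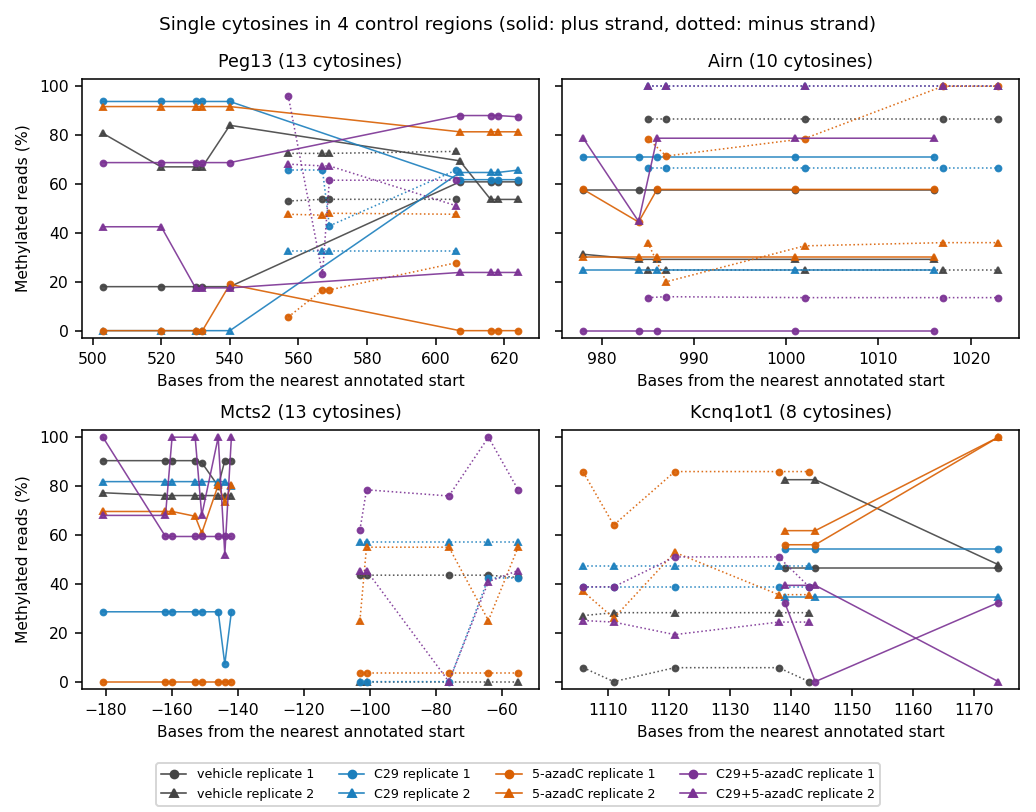
Methylated reads (percent, vertical axis) at single cytosines against bases from the nearest annotated start, in the control regions of Peg13, Airn, Mcts2 and Kcnq1ot1, with 1 line per library and strand. Some lines hold a level over several cytosines and others step within a strand, and lines differ between strands and replicates, as in Airn, where vehicle replicate 1 is at 57.6% on the plus strand and 86.7% on the minus strand.

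Measured over all imprinted cytosines that averaged 30% to 70% over the 8 libraries, 61.3% of the values of neighbours on a strand (271 pairs within 50 bases) lay within 5 points of each other, against 42.3% for such cytosines in the genome (24793 pairs). Over cytosines of any level the order was the reverse, with 62.4% in the imprinted genes and 74.4% in the genome. The 2 strands of a CpG differed by a median of 25.9 points in the imprinted genes (49 CpGs) and 24 in the genome (5753 CpGs), nearly as much as the 2 replicates of a group, which differed by 29 and 27.4 points at single cytosines. These measures were added after the values were seen and were not tested. Summing over a tile, as in the values given above, averages over strands and neighbours, yet neighbours that share a level add fewer independent values than their number.

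Tiles near 50% in vehicle were more frequent among the imprinted genes than in the genome, at 29 of 125 tiles with 3 or more cytosines (23.2%) against 6727 of 53527 (12.6%). Of the 29, 18 lay over control regions. They were chosen on the vehicle values, so differences from vehicle in them are given with no test. Their mean was 46.8% and 50.4% with vehicle, 52.4% and 51.9% with C29, 41.8% and 44.0% with 5-azadC, and 47.4% and 49.0% with the combination. Both 5-azadC libraries were below the other 6, and the combination lay between them and C29. Over the 6727 tiles of the genome chosen in the same way the mean was 51.4% in both vehicle libraries, 52.6% and 50.4% with C29, 44.7% and 45.6% with 5-azadC, and 46.5% and 46.4% with the combination.

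Many of the 29 tiles left the middle of the scale in a treated library. Still between 30% and 70% were 21 in each C29 library, 16 and 22 with 5-azadC, and 19 and 21 with the combination. The shares remaining were 72.4% in each C29 library, 55.2% and 75.9% with 5-azadC, and 65.5% and 72.4% with the combination, against 68.4% to 75.2% over the 6 treated libraries in the genome. In 5-azadC replicate 1 there were 9 below 30% (31.0%, against 20.9% in the genome) and 4 above 70% (13.8% against 8.07%). In 5-azadC replicate 2 there were 6 below (20.7% against 17.8%) and 1 above (3.45% against 6.97%). The median range over the 8 libraries was 35.9 points in the imprinted tiles and 34.9 in the genome. The mean of libraries with 5-azadC was below that without it in 19 of the 29 tiles (65.5%), against 74.0% of such tiles in the genome. Between the treated groups, the median difference of the combination from 5-azadC alone was 4.17 points in the imprinted tiles and 1.24 in the genome, and that of 5-azadC from C29 was -5.88 and -6.13 points.

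**Figure D4:**
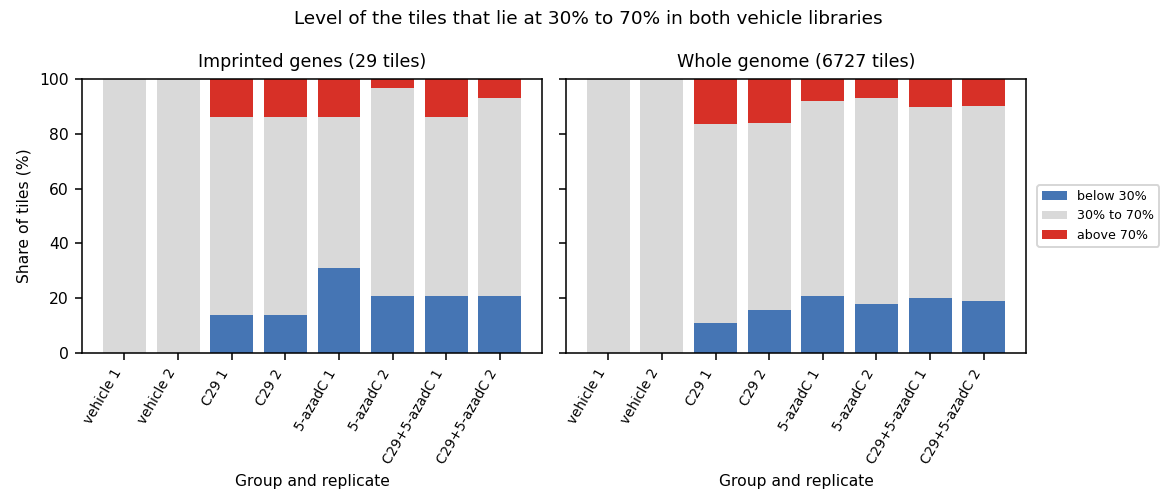
Share of tiles (percent, vertical axis) below 30%, at 30% to 70% and above 70% methylation in each library, for the 29 imprinted tiles and the 6727 tiles of the genome with both vehicle libraries at 30% to 70%, which fixes the 2 vehicle bars at 100%. In the treated libraries 55.2% to 75.9% of the imprinted tiles and 68.4% to 75.2% of the tiles of the genome stay in the middle.

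Each drug was then compared with vehicle by a likelihood-ratio test on the reads of a tile, with calls at a Benjamini-Hochberg q below 0.01 over all tiles and a pooled difference of at least 25 percentage points. The 3 comparisons share the vehicle libraries. The test treats reads as independent, so that with replicates as far apart as given above a call describes these libraries. With C29, 14 imprinted tiles of 217 (6.45%) were lower and 12 (5.53%) higher, against 5.43% and 5.21% of all tiles. With the 2 groups also not overlapping, 6 were lower and 10 higher (2.76% and 4.61%), against 3.49% and 3.28% of all tiles. These shares lay near those of the genome. Without C29 replicate 2 the 26 calls (12% of tiles, against 10.6% of all) became 42 (19.4% against 14.6%), and the cause was not tested. With a term for overdispersion (F test) the calls for imprinted tiles in each of the 3 comparisons came to 0, against 0% of all tiles. With 2 libraries per group this test could hardly reach such a q over all tiles, so its 0 calls tell nothing about the imprinted tiles.

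Among tiles with at least 100 reads in every library and groups that did not overlap, C29 gave 2 calls in the 82 imprinted tiles so deeply read, both higher (2.44%, against 0.541% of all 36623 such tiles), and 0 lower (against 0.907%). The Gnas tile downstream of the large exon, at 36.2% and 52.7% with vehicle against 72.4% and 80% with C29, was higher by 32.4 points over pooled reads. The tile upstream of Cdkn1c (chr7:143463001-143464000, 6 cytosines) had 12.6% and 15.1% with vehicle, 54.2% and 34.1% with C29, 25.7% and 9.05% with 5-azadC, and 18.7% and 28.3% with the combination. Its pooled difference with C29 was 28.8 points, and the combination lay below both C29 libraries.

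With 5-azadC alone, 26 imprinted tiles (12%) were lower and 16 (7.37%) higher, against 12.7% and 2.72% of all tiles. With groups not overlapping, 19 were lower and 15 higher (8.76% and 6.91%), against 9.35% and 1.59%. The share of lower tiles was thus close to that of the genome, while the share of higher tiles was above it, a difference that was not tested. The total depended on tiles of few cytosines. With at least 3 per tile, the 42 calls (19.4%, against 15.4% of all tiles) became 14 of 125 (11.2%, against 6.32%), 7 lower and 7 higher. The shares of all tiles by direction are not given at this setting, so this split is not set against the genome. By the same rule of reads and groups, 2 tiles were lower (2.44%, against 3.19%) and 3 higher (3.66%, against 0.175%). The lower tiles were at Slc22a18 (chr7:143475001-143476000, 5 cytosines), with 85.7% and 89.0% with vehicle and 41.8% and 73.0% with 5-azadC, a pooled difference of -27.6 points, and in a distant intron of Snrpn (chr7:60025001-60026000, 2 cytosines), with 59.8% and 83.9% against 37.7% and 48.1%, a difference of -27.5 points. The higher ones were the Gnas tile at 75.7% and 79.4% (33.9 points), Peg3 at 60.9% and 75.6% (31.2 points) and Kcnq1ot1 at 79.4% and 43.5% (30.5 points), with the vehicle values given above.

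With the combination, 27 imprinted tiles (12.4%) were lower and 13 (5.99%) higher, against 11.6% and 3.49% of all tiles, and with groups not overlapping 20 were lower and 11 higher (9.22% and 5.07%), against 7.84% and 2.03%. By the rule of reads and groups 4 were lower (4.88%, against 2.76%) and 3 higher (3.66%, against 0.289%). The largest decreases by the rule were at the Cdkn1c coding exon, where vehicle at 71.3% and 86.5% stood against 47.9% and 40.9% (-33.6 points), at a coding exon tile of H13 (chr2:152694001-152695000, 3 cytosines), with 94.4% and 93.9% against 49.4% and 69.4% (-32.2 points), and at the Igf2r intron, with 48.7% and 61.5% against 28.1% and 27.6% (-28.8 points). This last order ended when 1 of the 6 cytosines was left out, while those of the other tiles named by the rule, with either drug or both, held without any 1 cytosine. The largest increases were at Peg3, from 48.3% and 26.0% to 91.1% and 83.4% (50.5 points), at an intron tile of Kcnq1 (chr7:143325001-143326000, 8 cytosines), from 56.5% and 34.4% to 90.1% and 60.3% (32.8 points), and at the Mcts2 coding exon, from 74.0% and 47.7% to 80% and 95.1% (25.1 points). The libraries of Kcnq1 and Mcts2 with C29 alone, at 78.4% and 21.8% and at 92.7% and 13%, spanned wider than these differences.

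**Figure D5:**
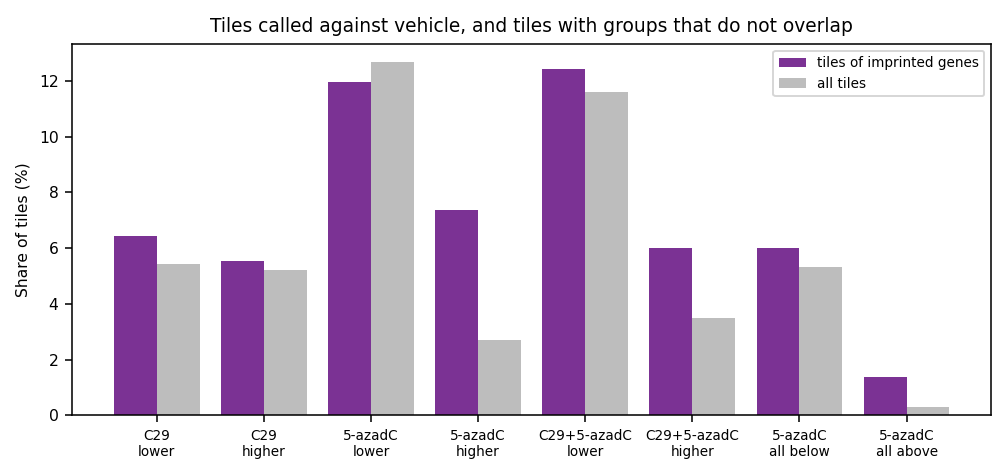
Share of tiles (percent, vertical axis) called lower or higher against vehicle in each treatment by the likelihood-ratio test, and share with all 4 libraries with 5-azadC below or above all 4 without, for the 217 tiles of imprinted genes and all 113626 tiles. The shares of lower tiles are near those of the genome (12% and 12.7% with 5-azadC), and the shares of higher tiles with 5-azadC are 7.37% and 2.72%.

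To set the effect of a drug against the spread between libraries, edgeR's quasi-likelihood test was fitted to methylated and unmethylated reads of all 8 libraries, with 5-azadC and C29 as terms. For 5-azadC, 0 of 212 imprinted tiles passed an adjusted p of 0.05, against 0% of 110031 tiles, and 13 (6.13%) had an unadjusted p below 0.05, against 6.07% of all. For C29, 0 passed, against 0% of all tiles, and 5 (2.36%) had an unadjusted p below 0.05, against 2.64%. A fit by limma to log2 ratios and an overdispersion-corrected F test over the same libraries also called 0 imprinted tiles for either drug. The share of all tiles called by these 2 fits is not given. At an unadjusted p below 0.05, limma gave 22 for 5-azadC (10.4%, against 10.9% of all tiles) and 11 for C29 (5.19% against 5.05%), and the F test 41 (18.9% against 15.8%) and 25 (11.5% against 9.70%). Over genes, edgeR called 0 of 43 imprinted genes for 5-azadC, against 0% of all genes, and 3 (6.98%) had an unadjusted p below 0.05, against 7.96%. In the edgeR and limma fits the shares of imprinted tiles lay near those of the genome, and in the F test they were somewhat above them, a difference that was not tested.

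Those 3 genes were Cdkn1c, Mest and Peg3. Cdkn1c had a mean over its 44 cytosines of 48.3% and 58.6% with vehicle, 51.7% and 50.7% with C29, 47.5% and 42.1% with 5-azadC, and 35.7% and 40.9% with the combination. The 4 libraries with 5-azadC lay below the 4 without, with a difference of -10.8 points and an edgeR p of 0.0102 (adjusted p 0.604). Mest had 83.7% and 91.0% with vehicle, 81.4% and 90.1% with C29, 66.8% and 70.9% with 5-azadC, and 80.9% and 72.2% with the combination, a difference of -13.8 points with an edgeR p of 0.0222 (adjusted p 0.617). In Mest too the 4 libraries with 5-azadC were the lowest. Peg3 had 68.0% and 46.6% with vehicle, 63.1% and 55.3% with C29, 65.3% and 88.1% with 5-azadC, and 80.8% and 84.5% with the combination, which is 21.4 points higher with 5-azadC (edgeR p 0.0266, adjusted p 0.617, higher in 3 of 4 libraries than all 4 without).

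By the order of the means alone, the 4 libraries with 5-azadC lay below the 4 without in 4 of the 43 imprinted genes (9.30%), against 10.5% of all genes, and above in 2 (4.65%), against 0.29%. Besides Cdkn1c and Mest, the lower ones were Impact and Trappc9. The higher ones were Zrsr1, at 35.1% to 47.3% without and 49.4% to 54.3% with 5-azadC, and Commd1, with which it shares 33 cytosines, and neither had a low edgeR p (0.815 and 0.882, adjusted p 0.954 and 0.971). With pooled reads in place of means the orders of Cdkn1c and Mest held and the other 4 did not. Impact then had 24.3% to 29.4% without 5-azadC and 19.9% to 39.9% with it, and Zrsr1 39.4% to 56.4% and 47.6% to 52.1%.

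Without any model, all 4 libraries with 5-azadC lay below all 4 without it in 13 imprinted tiles (5.99%), against 5.33% of all tiles, and above them in 3 (1.38%), against 0.308%. Of the 13, 4 were in Trappc9, a subunit of a vesicle tethering complex with 31 tiles, 2 each in Kcnq1, Snrpn and Gnas, and 1 each in Impact, Slc38a4 and the Igf2r intron shared with Airn. The Trappc9 tile with the smallest edgeR p (0.00116, adjusted p 0.813), in a coding exon (chr15:73025001-73026000, 3 cytosines), had 100% in each of the 4 libraries without 5-azadC, 79.7% and 86.2% with 5-azadC, and 67.4% and 74.6% with the combination. Most of these 13 lay in gene bodies that were highly methylated with vehicle, and the Igf2r intron was the 1 tile among them near 50% in vehicle. The 3 tiles above were the Peg3 start, with an edgeR p of 0.00997 (adjusted p 0.813), an intron of Usp29 (chr7:6842001-6843000, 2 cytosines) at 30.7% to 51.6% without and 56.2% to 77.6% with 5-azadC, and a Grb10 start (chr11:12038001-12039000, 3 cytosines) at 63.8% to 78.3% without and 79.3% to 100% with it. These tiles were named after their values were seen. Of these 16 orders, that of the Peg3 start was the 1 that held with any single cytosine of the tile left out, a check added after the values were seen. It could not be made for 2 of the 16, in Snrpn and Trappc9, whose tiles hold 1 cytosine.

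Whether the effect of 5-azadC depended on C29 was fitted as an interaction term in edgeR, added after the values were seen. No imprinted tile of 212 passed (0, against 0 of 110031 in all), and 9 (4.25%) had an unadjusted p below 0.05, against 2.70% of all tiles. Counted without a model, 16 imprinted tiles (7.37%) had 5-azadC libraries apart from vehicle in one direction and combination libraries apart from C29 in the other, against 3.36% of all tiles. At Kcnq1ot1 5-azadC was 35.7 points above vehicle, as a difference of means, and the combination 13.4 points below C29, with values of 79.4% and 43.5% against 12.3% and 39.3%, and of 37.2% and 24% against 45.7% and 42.3%.

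Neighbours in imprinted clusters, a list of 21 genes that includes the ubiquitin ligase gene Ube3a and the transcription factor gene Klf14, had 20 covered genes and 95 tiles. Of these, 3 were lower and 3 higher with C29 (3.16% each, against 5.43% and 5.21% of all tiles), 11 and 4 with 5-azadC (11.6% and 4.21%, against 12.7% and 2.72%), and 6 and 3 under both drugs (6.32% and 3.16%, against 11.6% and 3.49%). In 4 tiles (4.21%, against 5.33%) all 4 libraries with 5-azadC lay below, in 0 (against 0.308%) above, and 12 of 62 (19.4%, against 12.6%) were near 50% in vehicle. Klf14, with 59 cytosines in 1 tile, had 48.3% and 52.6% with vehicle, 46.3% and 29.9% with C29, 38.3% and 48.8% with 5-azadC, and 44.4% and 57.5% with the combination, and both C29 libraries lay below vehicle. The 10 genes for factors that maintain imprints were all covered, with 62 tiles, of which 5 were lower and 1 higher with C29 (8.06% and 1.61%, against 5.43% and 5.21% of all tiles), and 8 and 1 with 5-azadC as under both drugs (12.9% and 1.61%, against 12.7% and 2.72%, and 11.6% and 3.49%). In 2 of the 62 tiles (3.23%, against 5.33%) all 4 libraries with 5-azadC lay below those without, and in 0 (against 0.308%) above. Of 31 tiles 3 (9.68%, against 12.6%) were near 50% in vehicle. Dnmt1, the maintenance methyltransferase, had a mean of 46.0% and 47.9% with vehicle, 47.2% in each C29 library, 44.3% and 40.8% with 5-azadC, and 40.2% and 44.1% with the combination. Uhrf1, its partner, had 17.8% and 19.1% with vehicle, 22.1% and 19% with C29, 11% and 14.9% with 5-azadC, and 17.4% and 16.8% with the combination. In both genes, but in none of the other 8, the 4 means with 5-azadC lay below the 4 without. Of all genes, 10.5% had this order. Over pooled reads neither order held, as with Dnmt1 at 50.4% in 5-azadC replicate 2 and 44.1% in C29 replicate 1. Median tile differences from vehicle with 5-azadC were -5.24 points in the imprinted genes, -5.17 in their neighbours and -6.84 in the factors, against -4.96 over all tiles.

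The hexamer TGCCGC, which Zfp57 binds when it is methylated, was sought on both strands of each tile. It was present in 67 of 217 imprinted tiles (30.9%), 36 of 68 control region tiles (52.9%) and 14 of 29 imprinted tiles near 50% in vehicle (48.3%), against 17.8% of all tiles and 20% of all tiles near 50%. Control region tiles are also richer in CpGs, with a median of 42 per tile against 16 over all tiles. In the stretches printed above it occurs 3 times in Mcts2, 2 times in Plagl1 and Peg13, and 1 time in Airn and Snrpn. A match describes the sequence and does not show binding.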

How the data were processed

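The authors' deposited cytosine files were analyzed, 1 per library, giving for each cytosine the methylated fraction and the count of reads, from which methylated reads were taken as fraction times count. According to the submitters' processing notes, reads had been checked with FastQC 0.11.8, trimmed with Trim Galore 0.4.1, aligned to mm10 (GRCm38) with Bismark 0.20.0 and compared with methylKit 1.7.0.

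Cytosines with 10 or more reads in all 8 files were kept, and all of the 567750 lay at a CpG in GRCm38. Reads were summed over windows of 1000 bp and over genes of GENCODE M21 with 5000 bp upstream. Gene values in the text are unweighted means over cytosines. Pairwise comparisons used a logistic likelihood-ratio test per tile, and fits over all libraries used edgeR 4.0.16 on methylated and unmethylated counts with the library as block and 5-azadC and C29 as terms, with limma 3.58.1 on log2 ratios as an alternative. All p-values were adjusted by Benjamini-Hochberg over all tiles or all genes tested. Analyses ran in Python 3.11.15 (numpy 2.4.6, pandas 2.3.3, scipy 1.17.1, matplotlib 3.10.9, pysam 0.24.0) and R 4.3.3. The code was tested on simulated data.

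Control regions were all described. Beyond these, a tile was named in a comparison if it was called, had at least 100 reads in every library and its groups did not overlap, with at most 3 per direction by size of difference. The imprinted genes, their neighbours and the factors that maintain imprints were chosen with earlier results of these data known. The strand measures, the interaction term and the orders with each cytosine left out were added after the values were seen. The alternatives tried were a minimum of 5 or 20 reads, leaving out the 0.1% of cytosines of highest coverage, tiles of 500 bp, at least 3 cytosines per tile, both strands of a CpG summed, gene bodies alone, means or pooled reads in place of each other, other bounds or any number of cytosines for tiles near 50%, an F test with overdispersion, limma, a replicate block, and each library left out in turn. With groups of 2, the smallest exact permutation p is 0.333, and with 4 against 4 it is 0.0286, so no permutation p is given.

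Spike-in controls read 0.216% to 0.329% for the unmethylated and 97.5% to 98.3% for the methylated standard.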

Additional observations from a re-analysis of the deposited data

Results flagged for a closer look

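At Plagl1 (chr10:13091001-13092000), 5-azadC was 18.6 points below vehicle (-18.6), while the combination was 2.44 points above C29, so the effect of 5-azadC with C29 minus the one without was 21. The libraries of each pair of groups did not overlap, and the 2 differences had opposite signs. Both gaps were narrow, with 95% intervals that overlapped. They lay between the combination (67.3% and 66.7%) and C29 (66.1% and 63.0%), and between vehicle replicate 1 (51.4%) and 5-azadC replicate 2 (48.8%). The 2 libraries lay 14.5 points apart with vehicle and 17.4 with 5-azadC. The interaction term of edgeR did not pass at this tile (adjusted p of 1).

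At Kcnq1ot1 (chr7:143295001-143296000), 5-azadC was 35.7 points above vehicle and the combination 13.4 points below C29 (-13.4), so the effect of 5-azadC with C29 minus the one without was -49.1. Here too neither pair of groups overlapped and the signs were opposite, and the interaction term of edgeR did not pass (adjusted p of 1). The 2 libraries lay 27.0 points apart with vehicle and 36.0 with 5-azadC.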

How the results depend on the processing

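With a minimum of 20 reads in place of 10, 124 imprinted tiles remained. The number called went from 26 to 11 with C29 (8.87%, against 7.96% of all tiles), from 42 to 19 with 5-azadC (15.3% against 12.6%) and from 40 to 17 with the combination (13.7% against 12%). The tiles with all 5-azadC libraries below went from 13 to 8 (6.45% against 5.63%), and those near 50% in vehicle from 29 to 13 of 64 (20.3% against 11.6%). Requiring 3 cytosines left 125 tiles, with 6 calls with C29 (4.80% against 3.42%), 14 with 5-azadC (11.2% against 6.32%) and 13 with the combination (10.4% against 6.11%), and 7 tiles below (5.60% against 6.40%). Both settings leave fewer tiles to call. The shares called with each treatment fell as well, in the imprinted genes and in the genome, and the cause was not tested.

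With the overdispersion-corrected F test, 0 imprinted tiles were called in any of the 3 comparisons with vehicle, against 0% of all tiles. With 2 libraries per group this test could hardly call any tile at that q, so no conclusion is drawn from it. Bounds of 40% to 60% for tiles near 50% gave 9 of 125 (7.2% against 3.69%), and bounds of 20% to 80% gave 49 (39.2% against 23.5%).

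Leaving out 1 library in turn gave 30 to 42 calls with C29, 42 to 61 with 5-azadC and 41 to 58 with the combination, while the shares over all tiles ran from 14.3% to 16.2%, 18.9% to 21.9% and 18.9% to 20.9%. Without C29 replicate 2 the 42 calls were 19.4% of imprinted tiles, against 14.6% of all. The cause was not tested. The edgeR fits called 0 imprinted tiles in each case, for which the share of all tiles is not given. The difference of the mean over imprinted cytosines with and without 5-azadC ran from -3.66 to -2.32.

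With a replicate block the calls were 26 with C29 (12%, against 10.4% of all tiles), 42 with 5-azadC (19.4% against 15.2%) and 40 for the combination (18.4% against 14.9%). With this block edgeR called 0 imprinted tiles and 0 imprinted genes, for which the shares of all tiles and genes are not given. The replicate numbers do not mark the same animals. Differences between replicates correlated between groups with r of -0.00637 to 0.0124 over all tiles and of -0.126 to 0.191 over the 217 imprinted tiles.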
